A study of Mus musculus with 24 samples.

Results

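The 8 genes described here form the core of the thermogenic programme of fat: Ucp1, Cidea, Dio2, Cox7a1, Cox8b, Prdm16, Ppargc1a and Adrb3. They were taken as the probes whose RefSeq accession, without its version, belongs to these mouse symbols, which gave 10 probes for the 8 genes, out of 56605 probes for 45616 genes or unmatched targets on the array. Each gene was read on its brightest probe. Ucp1 was chosen on its rise in aged white adipose tissue (WAT), so its values in that tissue are given as a description without a test, and the question asked of the other 7 genes is whether they follow it.

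RNA came from WAT, lung, liver and kidney of male C57BL/6J mice aged 10 weeks (young) or 90 weeks (aged), with 3 mice for each age and tissue and 24 single-colour Agilent arrays in all. No genotype or treatment other than age separates the groups, and the aged livers carry the replicate numbers 1, 2 and 4. The labels name WAT without giving the depot, and nothing states whether the tissues of a given number came from a single animal. Levels are log2 signals with the 75th percentile of their own array subtracted, so that a level of 0 equals that percentile and a difference of 1 is a doubling.

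Brown and beige fat cells burn fuel to release heat. Noradrenaline from sympathetic nerves acts on the beta3-adrenergic receptor (Adrb3), cyclic AMP rises in the cell, and lipolysis and the transcription of thermogenic genes follow, with Ppargc1a and Prdm16 among the regulators. The heat itself comes from uncoupling protein 1 (Ucp1), which lets protons return across the inner mitochondrial membrane without making ATP. White fat mainly stores lipid and normally holds few such cells.

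The cyclic AMP arm of this pathway acts in part through CREB-family factors, whose element has the palindrome TGACGTCA or its shorter core TGACG. Both were searched on both strands in the 250 bases before the annotated start of 6 of the members (RefSeq, build GRCm38.p6). Each palindrome also holds the core. The core was found in 3 of the 6, Ucp1, Dio2 and Ppargc1a, and in 17.8% of all 32851 promoters of that length. The palindrome was found in Dio2 alone among them and in 1.55% of all promoters. Cox7a1, Cox8b and Prdm16 had neither run of letters in this window, and Cidea and Adrb3 were not searched. The sequences of the 3 are shown to mark where the match lies. Whether any of these matches acts in the tissues measured was not tested. They are written 5′ to 3′ on the strand of the gene, with the matched letters in capitals (CGTCA in Ppargc1a is the core on the opposite strand).
Ucp1, chr8:83290098-83290347, plus strand, match beginning 147 bases before the start: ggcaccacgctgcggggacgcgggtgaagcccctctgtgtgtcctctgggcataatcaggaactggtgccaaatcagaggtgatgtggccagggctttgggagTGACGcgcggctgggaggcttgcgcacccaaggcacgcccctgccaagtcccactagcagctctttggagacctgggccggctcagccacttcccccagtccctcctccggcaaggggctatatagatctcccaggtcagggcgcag
Dio2, chr12:90739039-90739288, minus strand, match beginning 95 bases before the start: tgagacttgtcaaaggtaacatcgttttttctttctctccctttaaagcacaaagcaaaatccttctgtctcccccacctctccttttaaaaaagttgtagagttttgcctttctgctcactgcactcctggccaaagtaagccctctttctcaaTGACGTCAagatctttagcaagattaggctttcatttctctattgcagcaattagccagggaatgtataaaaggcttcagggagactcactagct
Ppargc1a, chr5:51567726-51567975, minus strand, match beginning 49 bases before the start: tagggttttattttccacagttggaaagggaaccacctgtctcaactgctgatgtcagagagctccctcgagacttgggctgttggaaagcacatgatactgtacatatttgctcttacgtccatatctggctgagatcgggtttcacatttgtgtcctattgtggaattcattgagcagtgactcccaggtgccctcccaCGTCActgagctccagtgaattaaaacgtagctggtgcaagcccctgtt

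The share of probes called well above background ran from 58.6% to 71.1% over the arrays. All 6 arrays of a tissue lie on 1 slide, so tissue and slide cannot be told apart and levels were not tested between tissues. The white adipocyte list (12 genes such as Adipoq, Fabp4 and Plin1) had a mean level between 5.48 and 6.40 on the 6 WAT arrays, so the defining markers of the labelled tissue were present in every sample. The WAT of young replicate 1 stood apart. Its mean over the 4 epididymis markers with a test was 4.86. The same mean was -5.30 and -2.85 in the other young WAT samples and -6.58 to -3.87 in the aged ones. Young replicate 1 correlated with the other young samples at r = 0.933 and 0.944, whereas those correlated at 0.987 with each other. Where a value moved markedly without this sample, that value is given too; for genes other than the members it is a difference of means with no test, chosen after seeing the data. In the lung, the aged replicate 1 had the fewest probes well above background of its tissue, 59.5%.

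Ucp1 went from no measurable signal to a clear one in aged WAT. In young WAT its level was -6.76, -7.84 and -6.68, and in aged WAT it was -0.34, -0.62 and -1.43 (means -7.09 ± 0.64 and -0.80 ± 0.56, SD, n = 3). No young sample and every aged sample was well above background, and the groups did not overlap. The young signals were 7.02, 3.58 and 7.42 arbitrary units and the aged ones 548, 506 and 261. Measured against the dimmest signal called well above background on each young array, Ucp1 was at least 28.4-fold higher at 90 weeks. The measured difference, taken against young signals at background, was 6.29 on the log2 scale, and 3.76 with another background correction (normexp).

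**Figure D1:**
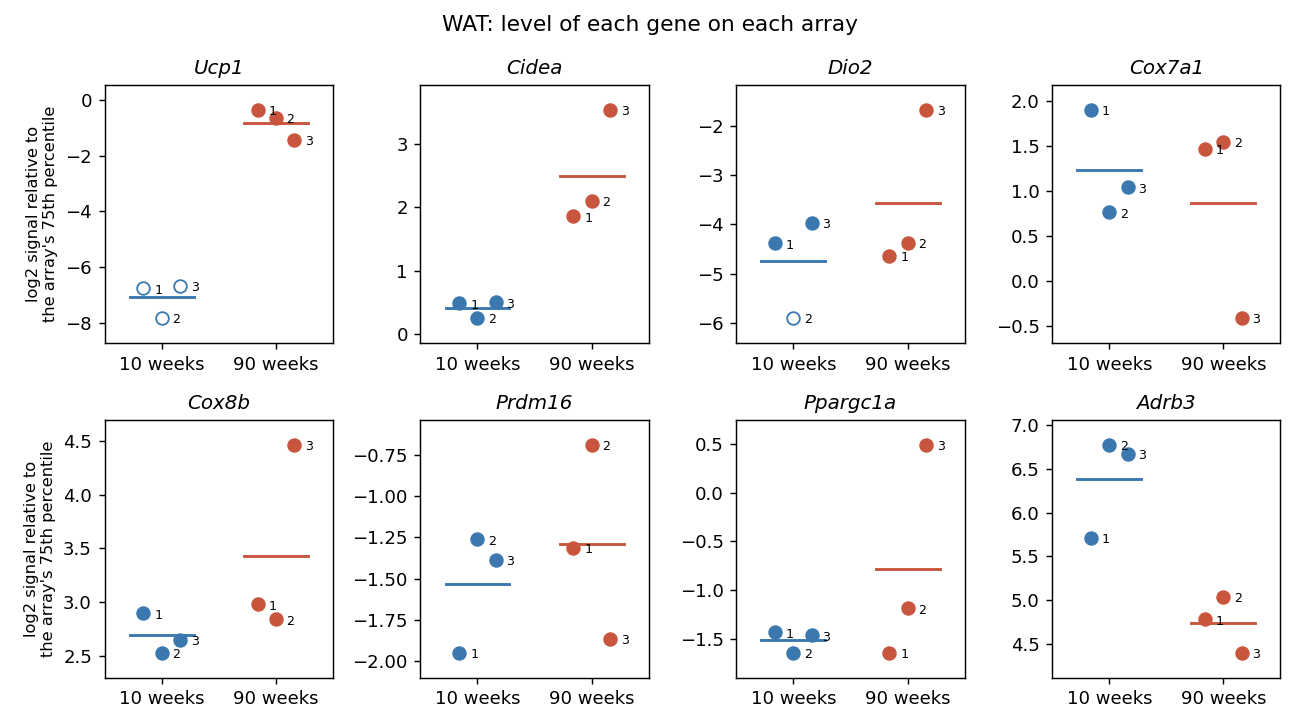
Level of each of the 8 genes on each of the 6 WAT arrays (y axis, log2 signal minus that array's 75th percentile; each panel has its own scale; x axis, age). Points are mice with their replicate number, open where the probe was not well above background, and bars are group means; only Ucp1, Cidea and Adrb3 separate the ages without overlap, and aged replicate 3 is the highest sample for Cidea, Dio2, Cox8b and Ppargc1a.

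None of the 7 partners passed the threshold (Benjamini-Hochberg adjusted p under 0.05 over 30063 genes, limma) in WAT, against 2.01% of all genes called higher and 0.579% called lower. At an unadjusted p under 0.05, 1 partner was higher (Cidea) and 1 was lower (Adrb3), against 9.86% and 9.42% of all genes. Cidea was also the 1 partner with every aged sample above every young sample, a pattern found in 13.7% of all genes, and Adrb3 the 1 with every aged sample below, found in 15.0%. The change was positive for 5 of the 7 partners, with a median of 0.73 against -0.05 over all genes tested. Without young replicate 1 the smaller changes, -0.37 for Cox7a1 and 0.24 for Prdm16, became -0.03 and 0.03. Without aged replicate 3 the changes were 1.57 for Cidea, 0.25 for Dio2, 0.22 for Cox8b and 0.10 for Ppargc1a. In that same fit they were 0.27 for Cox7a1, 0.53 for Prdm16 and -1.47 for Adrb3. With 3 mice against 3, an exact permutation test of a single gene cannot go below p = 0.1.

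Cidea, a lipid droplet protein abundant in brown fat, came closest to following Ucp1 upward. Its level was 0.49, 0.26 and 0.50 in young WAT and 1.86, 2.11 and 3.54 in aged WAT. The aged samples all lay above the young ones, with replicate 3 highest. The change was 2.09 on the log2 scale (SE 0.45), a 4.24-fold difference, with an adjusted p of 0.0774 from limma, and this call was made under none of 15 alternative settings. Without aged replicate 3 the change was 1.57 (adjusted p = 0.0512).

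Dio2, the deiodinase that turns thyroxine into active thyroid hormone inside the cell, had levels of -4.39, -5.90 and -3.96 in young WAT and -4.63, -4.38 and -1.68 in aged WAT. Of these, the sample at -5.90 was not well above background. The groups overlapped, and aged replicate 3 alone lay above every young sample. The change of 1.19 had a 95% interval from -1.03 to 3.41 (adjusted p = 0.516), and it was 0.25 without that sample.

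The cytochrome c oxidase genes encode the subunit isoforms of muscle and brown fat, in the last complex of the respiratory chain. Cox8b read 2.90, 2.53 and 2.65 in young WAT and 2.98, 2.84 and 4.47 in aged WAT, a change of 0.74 (95% interval -0.37 to 1.84, adjusted p = 0.422). Cox7a1 read 1.90, 0.76 and 1.04 in young WAT and 1.47, 1.55 and -0.41 in aged WAT, a change of -0.37 (95% interval -1.84 to 1.11, adjusted p = 0.775). Both pairs of groups overlapped, and aged replicate 3 was the highest of the 6 samples for Cox8b and the lowest for Cox7a1. Without that sample the change was 0.22 for Cox8b and turned positive, to 0.27, for Cox7a1.

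Neither regulator differed between ages beyond the spread between mice. Prdm16, a transcriptional cofactor of brown and beige identity, read -1.95, -1.26 and -1.39 in young WAT and -1.31, -0.69 and -1.87 in aged WAT, with a change of 0.24 (95% interval -0.62 to 1.11, adjusted p = 0.743). Ppargc1a, the coactivator of mitochondrial biogenesis, read -1.43, -1.64 and -1.47 in young WAT and -1.64, -1.19 and 0.49 in aged WAT, with a change of 0.73 (95% interval -0.60 to 2.07, adjusted p = 0.502). In both genes the ages overlapped, and the Ppargc1a change was 0.10 without aged replicate 3. Its second probe changed by 0.64.

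Adrb3, the receptor at the head of the pathway, went the other way from Ucp1. Its level was 5.71, 6.77 and 6.67 in young WAT and 4.78, 5.04 and 4.40 in aged WAT, so every aged sample lay below every young one. The change was -1.64 (SE 0.34, adjusted p = 0.0715), a level 0.320 times that of young WAT, and its second probe changed by -1.85. Without young replicate 1, the sample that stood apart, the change was -1.98 and Adrb3 passed the threshold (adjusted p = 0.0309, limma). It also passed in the fit of all 24 arrays (adjusted p = 0.0335, limma). That fit called 3127 of 30063 genes lower, against 174 in the main fit. Adrb3 passed in these 2 of 15 alternatives, and its adjusted p reached 0.218 among the others.

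The aged mice were not uniform. Replicate 3, which had the lowest Ucp1 level of the aged WAT samples, had the highest levels of Cidea, Dio2, Cox8b and Ppargc1a. Among 27 further brown and beige fat genes with a test in WAT, none was called in either direction, and the median change was 0.16 (0.08 without young replicate 1), with 16 of 27 positive. The largest changes in the list were in Slc27a2, a fatty acid transporter, at -2.61 (adjusted p = 0.385), and Otop1, a proton channel, at 2.59 (adjusted p = 0.210). Slc27a2 read 0.62 in young replicate 1 and -1.90 or below on the other 5 WAT arrays, and its change was -1.17 without that sample. Otop1 read -0.93 and 0.14 in aged replicates 1 and 2 but -3.60 in aged replicate 3, so that the sample highest for Cidea was the lowest of the aged ones here. Elovl3, a fatty acid elongase chosen after its values were seen, read -0.92 in aged replicate 3 and -5.04 or below on the other 5 WAT arrays, and was well above background in 1 young and 2 aged samples.

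Other parts of the pathway gave few calls. Of 18 genes of adrenergic signalling and lipolysis, none was called in WAT and the median change was -0.12 (-0.24 without young replicate 1). Adcy3, an adenylyl cyclase, changed by 1.96 (adjusted p = 0.104) and Pde4d, a phosphodiesterase that breaks down cyclic AMP, by 1.37 (adjusted p = 0.461), which became 0.32 without aged replicate 3. Of 8 genes of thyroid hormone handling none was called, with Thrsp, a lipogenic gene responsive to the hormone, at -1.12 (adjusted p = 0.223) and Slc16a10, a transporter, at 1.05 (adjusted p = 0.120). In a list of 12 genes for heat cycles that do not need Ucp1, 9 had a test and 1 was called. Gatm, which makes the creatine precursor, rose by 1.55 (adjusted p = 0.0493, limma), against 2.01% of all genes called higher. Its partner Gamt, which completes creatine synthesis, read 5.13, 3.43 and 3.29 in young WAT and 2.10, 2.22 and 0.56 in aged WAT, a change of -2.33 (adjusted p = 0.137). Alpl, a phosphatase of the creatine cycle, changed by -2.0 (adjusted p = 0.286), and by -0.94 without young replicate 1.

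The paralogs of the 8 genes gave no call in WAT. The 14 with a test changed by -1.54 to 1.77, with a median of 0.10, and by -0.73 to 1.19 without young replicate 1. Ucp2 and Ucp3, chosen after their values were seen, changed by 1.46 (adjusted p = 0.116) and 1.47 (adjusted p = 0.134), with every aged sample above every young one. These genes lie side by side and encode other mitochondrial carriers; their levels ranked the 6 WAT samples in the same order. Cox7a2 and Cox8a, the broadly expressed counterparts of the subunit genes, changed by -0.29 and -0.24 (adjusted p = 0.369 and 0.446).

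Marker lists for cells that WAT can hold were measured beside these values. In bulk tissue, fewer cells of a type and less RNA per cell cannot be told apart. Among 5 markers of the brown fat lineage, Zic1 was above background on no WAT array and none of the other 4 was called. The larger changes were 1.26 for Pdk4, a kinase that spares glucose (adjusted p = 0.175), and -0.16 for Ebf3, a transcription factor (adjusted p = 0.841), the latter -0.41 without young replicate 1 and 0.02 without aged replicate 3. White adipocyte markers gave 0 calls of 12 and a median of -0.39 (-0.62 without young replicate 1), with Retn (resistin) at -1.28 (adjusted p = 0.318) and Plin1, which coats lipid droplets, at -0.60 (adjusted p = 0.360). Of 11 skeletal muscle markers with a test, 1 was called, Tnnc2, at -1.75 (adjusted p = 0.0429, limma), against 0.579% of all genes called lower. In 6 of the 11 every aged sample lay below every young one, against 15.0% of all genes. The change was positive in 2, Tnni2 at 0.52 and Tnnt3 at 0.20, and the median change was -0.83 (-1.63 without young replicate 1). The list mean was -1.66 to -1.35 in young and -3.05 to -2.23 in aged WAT, and its part in the values of Cox7a1 and Cox8b was not tested. The myosin genes Myh1 and Myh2 had the largest changes: Myh1, well above background in no aged sample, was at least 4.35-fold lower (adjusted p = 0.203), and Myh2 changed by -2.57 (adjusted p = 0.196). Young replicate 1 was high for Myh1, at -1.15, and without it the Myh2 change was -1.75. The defining skeletal muscle gene Ckm was too dim for a test in WAT.

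Most immune markers rose in aged WAT. Of 10 lymphocyte markers, 7 were called higher, against 2.01% of all genes. In all 10 every aged sample lay above every young one, a pattern found in 13.7% of all genes. The largest change was 6.23 in Jchain, a plasma cell gene (adjusted p = 0.0189), followed by Ms4a1 at 3.61, Cd3g at 3.50 and Cd79b at 3.48. The list mean was -2.58 to -1.37 in young WAT and 0.62 to 1.14 in aged WAT. Of 10 macrophage markers 3 were called higher, against the same 2.01% of all genes. These were Trem2 by 5.01, Cd68 by 3.72 and Adgre1 by 3.18 (adjusted p = 0.0157, 0.0258 and 0.0448, limma). The change was positive for 8 of the 10, with Itgam at -0.16 and Cd163 at -0.66 (-1.28 without young replicate 1). The macrophage list mean was 1.72 to 3.26 in young WAT and 4.29 to 5.26 in aged WAT. The part of either immune list in the members' values was not tested.

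The genes whose levels were most like those of Ucp1 over the 6 WAT arrays were Sycp3 (r = 0.993), Ubd (0.992), Gnal (0.990), Smyd3 (0.989) and Ccdc141 (0.986), out of 15758 genes with a symbol and a signal on all 6 arrays. The 6 points are 3 young and 3 aged mice, and Ucp1 was well above background in the aged ones alone, so these values mostly describe the step between ages, and 114 genes exceeded 0.95. Over all 24 arrays the genes most like Ucp1 were Gnal (r = 0.800), Slc35f6 (0.786), Tpcn2 (0.772), Zfand2a (0.771) and Star (0.745), but Ucp1 was well above background on 5 of these arrays, and its readings on the other 19 are background.

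In the lung, Ucp1 had a signal in 2 young samples and in no aged one. It was well above background in young replicates 2 and 3, at -2.47 and -0.84, but not in young replicate 1, at -6.52, nor in any aged sample, at -6.77, -7.39 and -7.06. With a signal on 2 of the 6 arrays it was too dim for the test, and the 4 readings at background have no order among them.

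**Figure D2:**
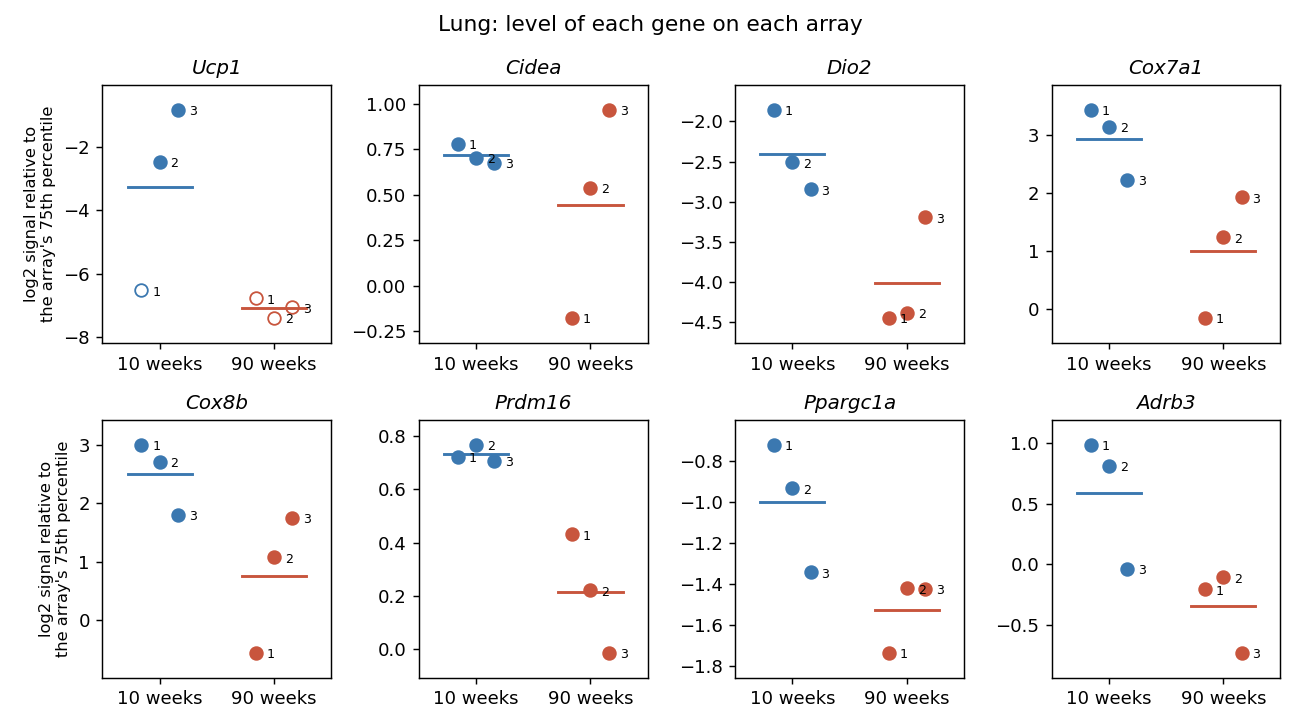
Level of each of the 8 genes on each of the 6 lung arrays (y axis, log2 signal minus that array's 75th percentile; each panel has its own scale; x axis, age). Points are mice with their replicate number, open where the probe was not well above background, and bars are group means; for 6 genes, all but Ucp1 and Cidea, every aged sample lies below every young one, and Ucp1 is at background in 4 of the 6.

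None of the 7 partners was called in the lung (limma, 30327 genes), where 2.89% of all genes were called lower. At an unadjusted p under 0.05, however, 6 of the 7 were lower and none was higher, against 17.7% of all genes lower. The same 6 had every aged lung below every young one, which 24.2% of all genes had. Their changes ranged from -1.93 to -0.52, and the median over the 7 was -0.93 against -0.08 over all genes.

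Dio2 read -1.86, -2.51 and -2.84 in young lungs and -4.44, -4.38 and -3.19 in aged lungs, a change of -1.60 (SE 0.42, adjusted p = 0.0814). Without aged replicate 3, the highest of the aged samples, the change was -2.01 and passed the threshold (adjusted p = 0.0437, limma). This was its 1 call among 15 alternatives, over which its adjusted p reached 0.434. Prdm16 read 0.72, 0.77 and 0.71 in young lungs and 0.43, 0.22 and -0.01 in aged lungs, a change of -0.52 (SE 0.13, adjusted p = 0.0771). Prdm16 passed without aged replicate 1, at -0.63 (adjusted p = 0.0477, limma), also its 1 call among 15 alternatives, with adjusted p up to 0.350. In both genes every aged lung lay below every young one.

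Adrb3 read 0.98, 0.81 and -0.04 in young lungs and -0.21, -0.11 and -0.73 in aged lungs (change -0.93, adjusted p = 0.130). Ppargc1a read -0.72, -0.94 and -1.34 in young lungs and -1.74, -1.42 and -1.43 in aged lungs (change -0.53, adjusted p = 0.146). The lowest young and the highest aged sample lay close together in both genes. Cidea was the exception among the partners: young lungs read 0.78, 0.70 and 0.67, aged lungs -0.18, 0.54 and 0.97, and the change of -0.28 had an adjusted p of 0.560 with overlapping groups.

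The subunit genes showed the larger lung differences. Cox7a1 read 3.43, 3.15 and 2.23 in young lungs and -0.15, 1.24 and 1.93 in aged lungs, a change of -1.93 (SE 0.59, adjusted p = 0.108). Cox8b read 3.0, 2.71 and 1.81 in young lungs and -0.56, 1.08 and 1.75 in aged lungs, a change of -1.75 (SE 0.64, adjusted p = 0.152). Within each age the samples kept one order for both genes, with young replicate 1 highest and aged replicate 1 lowest. Without aged replicate 1 the changes were -1.35 and -1.09.

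Markers of 2 other tissues moved with these lung values. The mean over 10 cardiac muscle markers, from genes such as Myh6 and Myl7, was 3.77, 3.49 and 2.08 in young lungs and -0.34, 1.75 and 3.06 in aged lungs, in the same order within each age as Cox7a1 and Cox8b, while none of the 10 was called. The mean over the 12 white adipocyte markers was 2.32, 2.35 and 1.72 in young lungs and -1.27, -0.84 and 0.89 in aged lungs. Of these 12, Plin1 fell by 4.89, Retn by 3.46 and Cidec, a paralog of Cidea, by 1.53 (adjusted p = 0.0290, 0.0345 and 0.0289); Plin1 was well above background in 1 of the 3 aged lungs. Adipoq, which encodes adiponectin and was chosen after its values were seen, changed by -7.63 (adjusted p = 0.0581, limma). Its aged lungs read -6.86, -7.54 and -1.18, of which 1 was well above background. Plin1 and Adipoq passed the filter mainly through the young lungs. Their falls are therefore not exact, and their adjusted p-values are no independent support. The part of either list in the members' values was not tested. Of the 26 further brown and beige genes with a test in the lung, 2 were called, both lower. Ebf2, a factor of brown precursors, and Kcnk3, a potassium channel, fell in the lung by 2.52 and 0.73 (adjusted p = 0.0298 and 0.0441, limma). Ebf2 was well above background in all 3 young lungs but in 1 of the 3 aged ones. It passed the filter through the young lungs, so its fall is not exact and its adjusted p is no independent support. The adrenergic and lipolysis list gave 1 call of 18 in the lung, Plin1, and the paralogs 1 of 13, Cidec. The thyroid hormone list gave 1 of 8, the receptor gene Thra, which fell by 0.88 (adjusted p = 0.0383). These calls compare with 2.89% of all genes called lower in the lung. Gatm, the gene called in WAT among the heat cycles, rose in the lung as well, by 1.03 (adjusted p = 0.0144, limma), as 1 of 12 genes. In the lung 825 of 30327 genes were called higher.

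**Figure D3:**
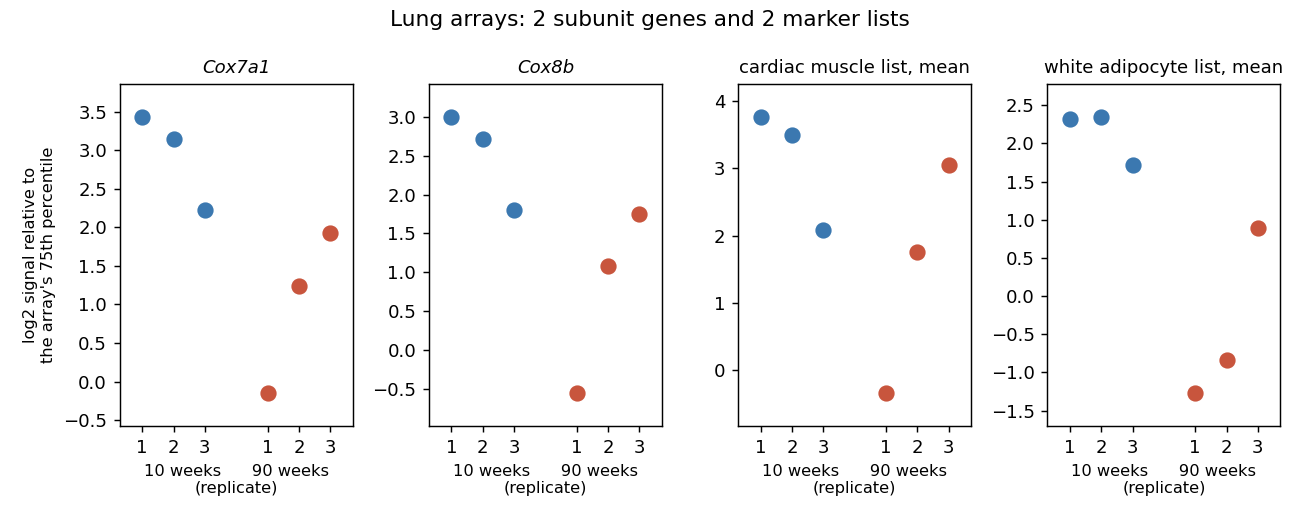
Levels on the 6 lung arrays of Cox7a1, Cox8b and the means of the cardiac muscle and white adipocyte lists (y axis, log2 signal minus that array's 75th percentile; x axis, replicate within each age; points are mice). Aged replicate 1 is the lowest sample in all 4 panels, and within each age the cardiac list has the order of both subunit genes.

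The difference between the tissues was tested directly, as the change in WAT minus the change in the lung. For 6 of the 7 partners the difference was positive, and for none did it pass the threshold (limma, 32497 genes, of which 74, or 0.228%, passed, and 0 to 315 with a mouse left out). At an unadjusted p under 0.05 there were 3, Cidea, Dio2 and Cox8b, against 13.1% of all genes. The values were 2.36 for Cidea (95% interval 1.08 to 3.64, adjusted p = 0.125), 2.79 for Dio2 (0.34 to 5.25, adjusted p = 0.324) and 2.48 for Cox8b (0.59 to 4.38, adjusted p = 0.256). Cox7a1, Ppargc1a and Prdm16 differed by 1.56, 1.26 and 0.76 (adjusted p = 0.510, 0.430 and 0.452). Adrb3, lower with age in both tissues, differed by -0.71 (95% interval -1.81 to 0.39, adjusted p = 0.584).

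**Figure D4:**
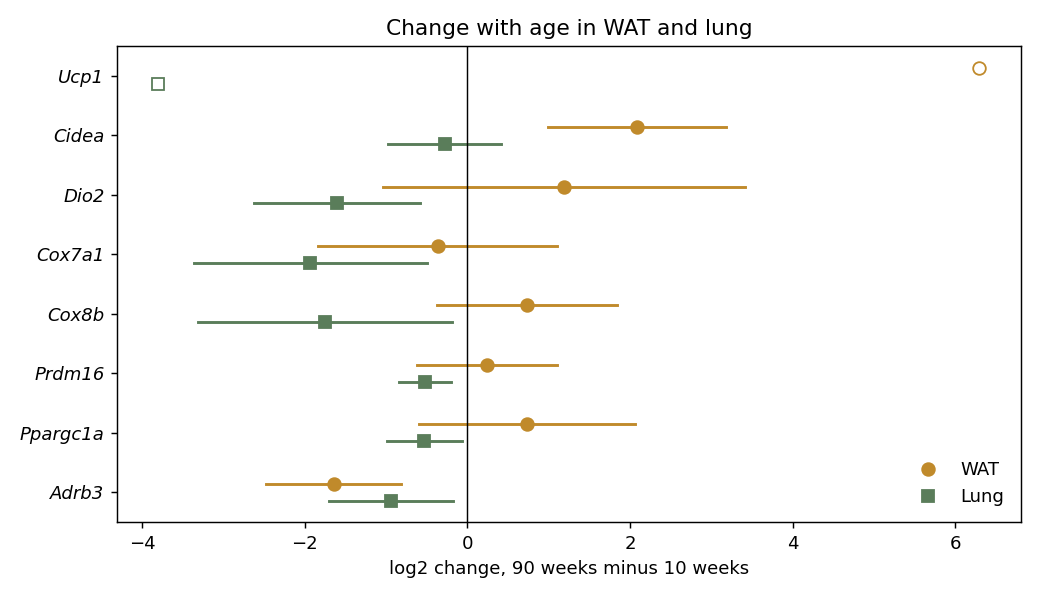
Change with age of each gene (x axis, log2 level at 90 weeks minus 10 weeks) in WAT (circles) and lung (squares), with 95% intervals from limma; open symbols are Ucp1, which has no test. Cidea in WAT is the highest tested change and Adrb3 is the 1 gene whose WAT interval lies wholly below 0, while 6 of 7 lung intervals lie below 0.

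In liver and kidney Ucp1 was well above background on no array. Among the partners in the liver, 6 had a test. Cox8b, above background in no young and every aged liver, was at least 2.23-fold higher at 90 weeks. It passed the filter through the aged livers alone, so its adjusted p of 0.0355 (limma) is no independent support. No other partner was called, against 10.5% of all genes called higher there. At an unadjusted p under 0.05, 4 of the 6 were higher, against 14.9% of all genes. In 5 of the 6 every aged liver lay above every young one, against 16.8%. Both counts include Cox8b. The median change over the 6 was 0.83, and Prdm16 was well above background in 1 young liver. Cidea read 2.49 in the aged liver numbered 4 but -2.35 and -2.80 in the other aged livers and -5.67 to -3.84 in young ones (change 3.56, adjusted p = 0.0897). In the kidney 3 partners of 7 were called lower, against 42.6% of all genes. Cox7a1 fell by 1.34 (adjusted p = 5.93e-04), Ppargc1a by 0.80 (adjusted p = 0.00354) and Adrb3, on its other probe, by 0.59 (adjusted p = 0.0310, limma). The change was positive for 3 of the 7, none of them called. Cox8b changed by 1.31 and Cidea by 0.34. Dio2, well above background in no young and every aged kidney, was at least 1.29-fold higher. The probes of Adrb3 disagree there: the probe used in the other tissues went from -5.87 to -4.59, a difference of 1.29, and was well above background in 1 young kidney. The median change over all genes was -0.23 in the kidney and -0.20 in the liver, and the changes above include that shift.

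Across the 8 groups, each gene read on the single probe brightest over all arrays, mean levels ranked differently from gene to gene. Ucp1 was highest in aged WAT (-0.80 ± 0.56), ahead of young lung (-3.27 ± 2.92), whose brightest sample lay within the aged WAT range, and the other 6 groups, from -7.44 to -6.39, were below background and have no order. Adrb3 was highest in young WAT (6.38 ± 0.58) and then aged WAT (4.74 ± 0.32), with every other group mean at 0.59 or below. Cidea was highest in aged WAT (2.50 ± 0.90), a range that the aged liver numbered 4 also reached. Young lung, aged lung and young WAT followed at 0.72, 0.44 and 0.42. The range of aged lung covered those of young lung and young WAT, which did not overlap with each other. Cox8b was highest in aged and young WAT (3.43 ± 0.90 and 2.69 ± 0.19) and young lung (2.51 ± 0.62), which overlapped. Cox7a1 and Ppargc1a were highest in young kidney (3.45 ± 0.08 and 2.17 ± 0.10), Prdm16 and Dio2 in young lung (0.73 ± 0.03 and -2.40 ± 0.50; SD, n = 3 throughout). Of these, Cox7a1 overlapped with young lung and Dio2 with aged WAT, whereas Ppargc1a and Prdm16 did not overlap with the next group.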

How the data were processed

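Intensity values were deposited by the authors: per the file headers, Agilent Feature Extraction 11.0.1.1 gave each spot a background-subtracted processed signal in arbitrary units, not scaled between arrays, and called spots well above background. Their design is a mouse array on mm9, although the published methods refer to a human kit. Accessions were matched to RefSeq symbols (GRCm38.p6) for 32994 of 56605 probes (58.3%); genes among the other probes are unnamed here.

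Outlier spots were left out (156 to 404 per array), spots of a probe averaged on the log2 scale, and each array's 75th percentile subtracted, with no floor. Probes well above background on at least 3 arrays of the comparison were kept, and the brightest per gene used. Ages were compared within a tissue with limma 3.58.1 (lmFit, eBayes) in R 4.3.3, adjusted by Benjamini-Hochberg, threshold 0.05. Arrays give no counts; precision is limited by 3 mice per group. Nothing beyond the labels states how the mice were kept or sampled, so p-values measure the spread between these samples. The fit was tested on simulated data.

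The members and lists were chosen with earlier results of these data known. The rule for named genes took the members, up to 4 called genes of each list by size in WAT (the 2 largest changes where fewer than 2 were called), called paralogs, and the 5 genes most correlated with Ucp1; others are marked. Lists for epididymal, mesothelial, endothelial, fibroblast, sympathetic and cardiac cells were also measured.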

Additional observations from a re-analysis of the deposited data

Results flagged for a closer look

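Ucp1 was well above background in every aged and no young WAT sample, and in 2 of the 3 young and no aged lungs. The change in WAT minus the change in the lung was 10.09 on the log2 scale, and this difference was not tested. Young WAT and 4 of the 6 lung samples were at background, so that the order of those 4 says nothing and the size is not exact: it was 11.72 without young lung replicate 1, 8.88 without young lung replicate 3 and 5.90 with normexp background correction.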

How the results depend on the processing

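The results were recomputed under 15 alternatives per tissue and 18 for the difference between tissues. No member was called in the main fits, so there was no called member result that could reverse. Members called stayed at 0 except for 1 in WAT in the fit of all 24 arrays (Adrb3) and for the mice left out in turn, which gave 0 to 1 in WAT and 0 to 1 in the lung. The count of genes called was 779 in WAT and 1700 in the lung. It moved to 489 and 440 with no filter on dim probes, 6390 and 974 in the fit of all 24 arrays, and 1 and 231 with the methods' t-test, and to 1108 in the lung with spike-in scaling. With each mouse left out it ranged from 246 to 585 in WAT and from 2 to 1830 in the lung, and it moved by over 1.5 times without any WAT mouse but young replicate 1, and without young lung replicate 1 (2), 2 (24) or 3 (218) or aged lung replicate 3 (1065). With the replicate number as a block it was 364 in WAT and 1 in the lung, and the block called no member. The deviations of same-numbered samples correlated at r from -0.07 to 0.18 in WAT and -0.17 to -0.06 in the lung. With 3 samples per group these values cannot decide whether the numbers pair the samples. Higher calls made up 77.7% of the calls in WAT and 48.5% in the lung; their share moved by at most 9.90 percentage points under the other background correction and scalings, but was 51.1% and 60.7% in the fit of all 24 arrays, 69.1% in the lung with no filter and 88.7% in WAT with the block. For the difference between tissues, 74 genes were called, 112 with normexp, 25 with no filter, and without a mouse 0 to 315: in the lung 1, 0 and 1 (young replicates 1, 2 and 3), 24 and 27 (aged 1 and 2), in WAT 209, 47 and 17 (young 1, 2 and 3), 315 and 130 (aged 2 and 3); at the count of 0, limma gave 3198 genes an unadjusted p under 0.05. The Ucp1 change in WAT was 3.76 with normexp, which lifts dim signals, against 3.76 to 6.61 over all alternatives. The sign of 3 uncalled changes turned with a mouse left out: Cox7a1 in WAT (0.27 without aged replicate 3), Prdm16 in WAT (-0.06 without aged replicate 2) and Cidea in the lung (0.03 without aged replicate 1). Signals near background limit Ucp1 in young WAT and in the lung, and Dio2 in WAT. Liver and kidney values were not recomputed under the alternatives, and a slide block could not be fitted within a tissue.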

Other observations

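Lists fixed for other cells that the text has not described showed few calls in WAT. Mesothelial markers gave 1 call of 6, Krt19, a keratin, which fell by 2.42, against 0.579% of all genes called lower. Endothelial (6 tested), fibroblast and progenitor (8), sympathetic nerve (4), cardiac muscle (8) and epididymis (4) markers gave none. The mean over the 4 sympathetic nerve markers with a test was -0.24 in young replicate 1 and between -3.54 and -2.56 in the other WAT samples. That over 6 mesothelial markers was -0.85 in that replicate and 3.18 and 2.23 in the other young samples. Without that replicate the 6 mesothelial changes ran from -2.51 to -0.55, with a median of -1.85 against -0.29 with it.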
